A study of Rattus norvegicus with 16 samples.

Results

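The genes described here are 7 genes of vitamin A handling and alcohol oxidation, Rbp2, Rbp4, Lrat, Adh1, Adh7, Aldh1a1 and Aldh1a2, out of 26113 gene names on the array. They were chosen by name alone, with every probe that carries the name, and no measured value entered the choice. Together they had 8 probes, 1 for each gene and 2 for Lrat, and 7 of the 8 passed the filter on dim probes, the second probe of Lrat being the exception. Gene expression was measured on 16 two-colour Agilent rat microarrays, with 4 arrays for the stomach and 4 for the middle part of the intestine of each of a control (C) and a treated (OH) group of rats. All rats were suckling Wistar rats (Wistar Han in the study's methods) given fluid into the gut 2 times a day for 7 days from day 14 of life and killed on day 21. The C group received saline solution and the OH group received obestatin, a peptide made from the precursor of ghrelin, at 250 nmol/kg BW. Each array compared the tissue of 1 rat, labelled with Cy5, with a common reference labelled with Cy3, which the labels describe as RNA of stomach and middle intestine pooled from all rats. The values below are log2 ratios of Cy5 to Cy3, so that 0 is the level of the reference. Rbp4, Ttr and most liver genes measured were higher in the reference than on any of the 16 arrays, as described below, and its make-up beyond the labels was not tested, so 0 is not taken as a mean of the 2 tissues. The comparisons between groups share this reference, and a ratio says nothing on how the level of 1 gene compares with that of another.

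Vitamin A reaches the body as retinol and its esters and as carotenoids of the diet. In the absorbing cells of the small intestine the cellular retinol binding protein encoded by Rbp2 holds retinol, Lrat esterifies it for export with fat, and the plasma protein encoded by Rbp4 carries retinol released from liver and other stores to the tissues. Alcohol dehydrogenases such as Adh1 and Adh7 oxidise retinol and ethanol to aldehydes, and retinaldehyde dehydrogenases such as Aldh1a1 and Aldh1a2 make retinoic acid, the ligand of nuclear receptors.

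The promoters of Rbp2 and Lrat, which were higher in the intestine, and of Adh7 and Aldh1a1, which were higher in the stomach, are shown as the 250 bases before the gene start in RefSeq (GRCr8 build, 5′ to 3′ on the strand of the gene). All 7 genes had an entry there, Adh1 under its present name Adh1c. Capitals mark the letters TATAAA (the TATA box), the letters AGATAA (bound by GATA factors), the letters AGGTCA (the half-site of nuclear receptors) and the letters GTTAAT (the half-site of HNF1), looked for on both strands.
Rbp2, chr8:107963292-107963541, plus strand: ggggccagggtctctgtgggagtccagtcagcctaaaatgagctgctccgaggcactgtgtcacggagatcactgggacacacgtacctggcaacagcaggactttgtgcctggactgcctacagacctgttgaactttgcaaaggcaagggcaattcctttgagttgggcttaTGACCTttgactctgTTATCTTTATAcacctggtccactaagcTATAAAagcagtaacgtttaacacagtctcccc
Lrat, chr2:170571213-170571462, minus strand: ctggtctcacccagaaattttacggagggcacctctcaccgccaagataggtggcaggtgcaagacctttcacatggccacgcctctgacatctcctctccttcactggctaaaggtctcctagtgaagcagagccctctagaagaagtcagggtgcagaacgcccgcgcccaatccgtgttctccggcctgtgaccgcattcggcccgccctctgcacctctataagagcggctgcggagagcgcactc
Adh7, chr2:229421875-229422124, plus strand: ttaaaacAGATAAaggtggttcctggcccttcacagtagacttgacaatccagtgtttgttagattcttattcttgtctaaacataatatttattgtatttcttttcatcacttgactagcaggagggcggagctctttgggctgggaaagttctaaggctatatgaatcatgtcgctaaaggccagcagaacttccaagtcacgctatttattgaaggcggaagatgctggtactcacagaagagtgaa
Aldh1a1, chr1:227537370-227537619, plus strand: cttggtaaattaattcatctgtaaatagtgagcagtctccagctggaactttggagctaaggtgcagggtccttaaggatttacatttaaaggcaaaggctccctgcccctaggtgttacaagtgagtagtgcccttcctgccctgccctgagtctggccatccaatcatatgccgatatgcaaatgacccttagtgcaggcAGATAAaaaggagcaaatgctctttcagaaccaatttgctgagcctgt
The window of Rbp2 held the TATA box on both strands, the GATA letters and the nuclear receptor half-site, and its GATA letters share 1 base with the TATA box of the reverse strand. Those of Adh7 and Aldh1a1 each held the GATA letters alone, and the window of Lrat held none of these letters. Of 33469 promoter windows of the same length, 12.9% held the TATA box, 10.3% the GATA letters, 14.1% the nuclear receptor half-site and 6.45% the HNF1 half-site, so these matches are a description of the letters and no more. Adh7 and Adh1 are neighbours, with no other protein-coding gene between them in the RefSeq table, and their probes lie 45297 bases apart on the rn4 build of the array design.

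Each group lay on a slide of its own, and both C slides were scanned on another day than both OH slides. A difference between OH and C therefore cannot be told apart from one between slides or scan days. Within a treatment, stomach and intestine also lay on different slides, so the design does not separate a difference between tissues from one between slides either. Median raw Cy3 signals of the arrays, which hold the same reference, lay between 188 and 195 scanner units on the C slides and between 341 and 399 on the OH slides. The labelled tissues held in their markers: the mean ratio of the stomach mucosa genes lay between 2.53 and 3.64 on the stomach arrays and between -3.71 and -3.12 on the intestine arrays, and that of the enterocyte genes between -3.57 and -3.37 and between -1.07 and 1.04. Muscle genes differed in ratio among the stomach arrays. Striated muscle genes had a mean ratio of -1.19 on C stomach replicate 2, of 3.17 to 3.80 on the other C stomach arrays and of -0.47 to 0.98 on the OH stomach arrays, and smooth muscle genes had one of -2.49 to -1.42 in C and of -2.51 to 0.88 in OH stomach.

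Between stomach and middle intestine, 5 of the 7 genes passed the test in C rats and 5 of 7 in OH rats (limma, adjusted p under 0.05). Over all probes tested, 45% passed in C rats (22.7% higher and 22.3% lower in stomach) and 38.2% in OH rats (19.2% higher and 19.1% lower). Adh7, Aldh1a1 and Rbp4 were higher in the stomach, Rbp2 and Lrat were higher in the intestine, and Adh1 and Aldh1a2 did not pass in either treatment. For the 5 genes the stomach and intestine arrays did not overlap, as for 43.7% of all probes in C rats and 35.3% in OH rats, and the exact permutation p was 0.0286, two-sided, the smallest that 4 arrays against 4 allow. Adh7 passed the filter on dim probes only through the stomach groups, and Lrat only through the intestine groups. For both, the p-values and the separation of the arrays are no separate support for the direction. C and OH rats share no array in these comparisons. Because whole tissue was measured, fewer cells of a type and less RNA per cell cannot be told apart.

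**Figure D1:**
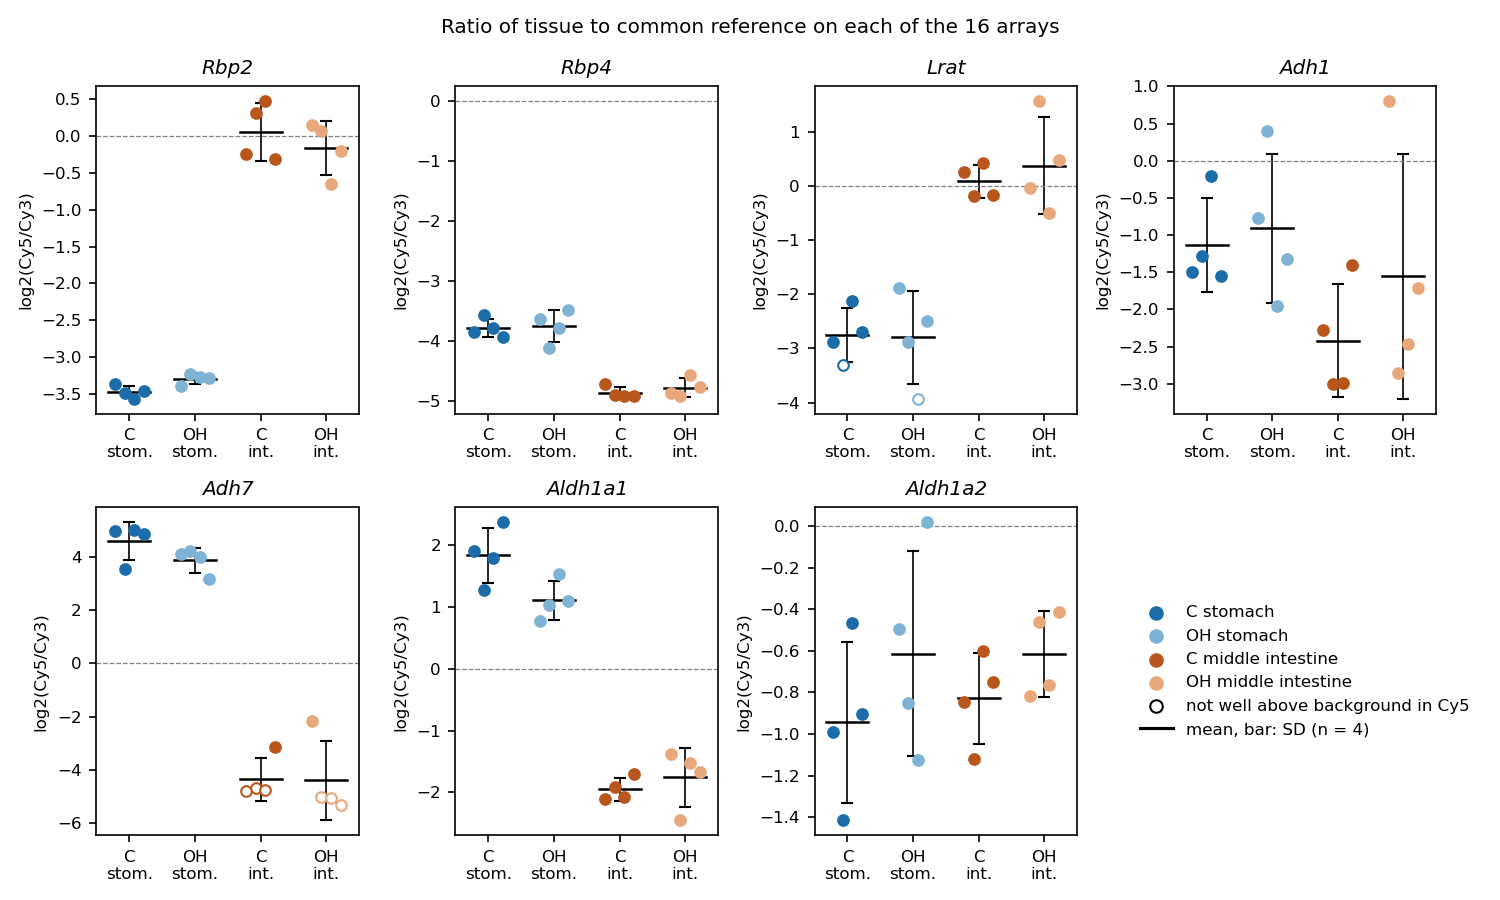
Log2 ratio of Cy5 to Cy3 of the 7 genes on every array, with 1 panel a gene, its own vertical scale, and the group mean and SD in black (n = 4). Open points were not well above background in Cy5; the stomach and intestine arrays are apart for Rbp2, Rbp4, Lrat, Adh7 and Aldh1a1, and C and OH arrays of a tissue overlap for every gene.

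Rbp2 encodes the retinol binding protein of enterocytes, and its probe lies at chr8:103685686-103685745 of rn4 on the plus strand. Its log2 ratios were -3.36, -3.48, -3.56 and -3.46 in C stomach and -3.39, -3.22, -3.27 and -3.27 in OH stomach. In C middle intestine they were -0.25, 0.31, 0.47 and -0.32, and in OH middle intestine 0.15, 0.06, -0.66 and -0.20. All 8 stomach arrays thus sat more than 2 log2 units below all 8 intestine arrays, and the stomach arrays lay close together, with an SD of 0.08 in C and 0.07 in OH. The difference, stomach minus intestine, was -3.52 ± 0.19 (SE) in C rats, 11.5-fold lower in stomach (limma, adjusted p = 2.8e-09). In OH rats it was -3.13 ± 0.19, 8.73-fold lower, with an adjusted p of 1.0e-08. Within a tissue the C and OH arrays overlapped, and OH minus C was 0.18 (95% interval -0.23 to 0.58, adjusted p = 0.77 in limma) in stomach and -0.22 (-0.62 to 0.19, adjusted p = 0.78) in intestine. The exact permutation p for OH against C in stomach was 0.057, the same as for Aldh1a1 in stomach.

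Rbp4, which encodes the plasma carrier of retinol, had its probe at chr1:242443795-242443854 of rn4 on the minus strand. Its log2 ratios were -3.85, -3.57, -3.78 and -3.93 in C stomach, and -3.62, -4.11, -3.77 and -3.49 in OH stomach. They were -4.72, -4.90, -4.91 and -4.91 in C middle intestine and -4.87, -4.91, -4.56 and -4.76 in OH middle intestine. Every array was well above background, yet all 16 lay far below the reference. Of 21170 probes, 36 (0.17%) had no array above the highest ratio of Rbp4, -3.49, and 6.04% had all 16 ratios below 0. Stomach exceeded intestine by 1.08 ± 0.13 (SE) in C rats, a 2.11-fold difference with an adjusted p of 1.8e-05 in limma, and by 1.02 ± 0.13 in OH rats, 2.03-fold, with an adjusted p of 3.0e-05.

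One of the pair of Rbp4 spots on C stomach replicate 2 gave little signal in either channel, with a log2 Cy3 signal of 7.29 against 14.4 for the other spot, and no mark of the software. Its log2 ratio was -2.97 and that of the other spot -4.18. The Cy5 difference between C stomach and C middle intestine was 0.21 on the log2 scale with this spot and 0.95 without it, and the Cy3 difference was -0.87 with it and 0.02 without it. With the spot left out, an alternative added after seeing the data, the ratio difference was 0.93 in C rats with an adjusted p of 8.35e-05 in limma. With Cy5 alone the call was lost in both treatments when the spot was kept (0.34 in C, adjusted p = 0.63; 1.05 in OH, adjusted p = 0.14) and held when it was left out (1.08, adjusted p = 1.2e-05; 1.05, adjusted p = 1.8e-05). Scaling the ratios between arrays gave 1.74 in OH rats with an adjusted p of 0.083.

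Genes of liver had low ratios on the same arrays as Rbp4. Ttr, which encodes transthyretin, the plasma protein that binds the Rbp4 protein, had ratios from -5.81 to -3.79 over the 16 arrays. Of 12 hepatocyte marker genes 11 passed the filter, and 9 of these had all 16 ratios below 0, the exceptions being Ahsg and Cps1. The highest ratio was at or below that of Rbp4 for 4 of the 11. Their mean ratio lay between -3.98 and -3.90 on the C and between -3.99 and -3.87 on the OH arrays of stomach. On the arrays of intestine it lay between -3.55 and -3.43 in C and between -3.29 and -3.16 in OH. This mean was thus lower in stomach while Rbp4 was higher there, but the single genes went in both directions. Their stomach minus intestine differences ran from -5.70 to 1.26 in C rats, with a median of -0.10. In OH rats they ran from -5.96 to 0.57, with a median of -0.17. The part of liver genes in the low ratios of Rbp4 was not tested.

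**Figure D2:**
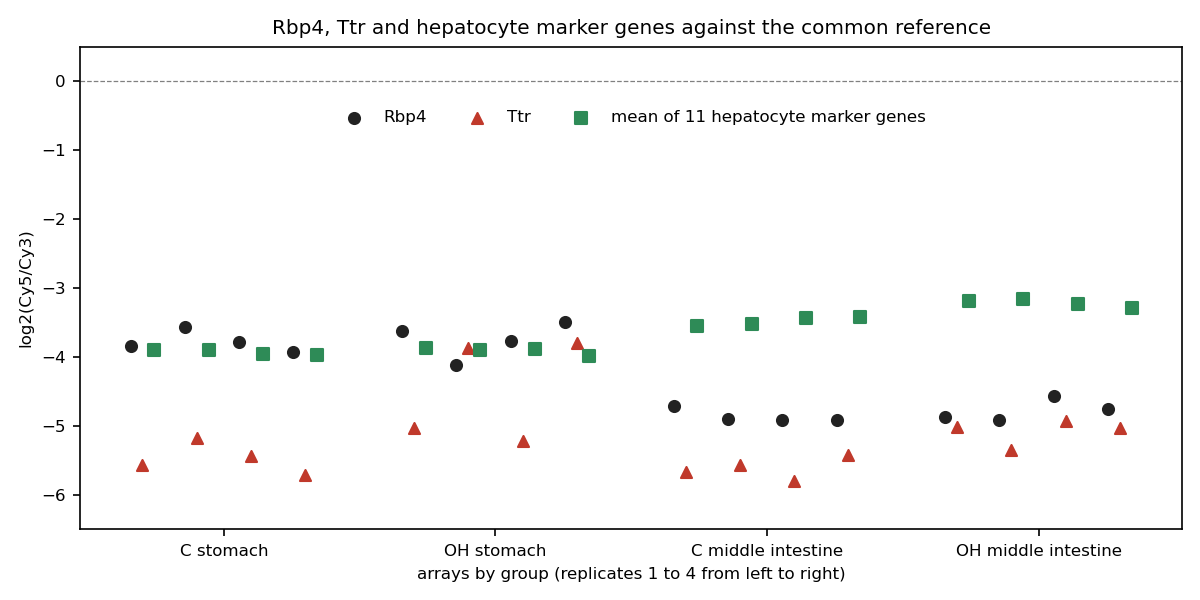
Log2 ratio of Cy5 to Cy3 on each of the 16 arrays, by group, for Rbp4 (circles), Ttr (triangles) and the mean of 11 hepatocyte marker genes (squares). All points lie below -3. Rbp4 is higher on the 8 stomach arrays than on the 8 intestine arrays. The mean of the hepatocyte genes is lower on the stomach arrays, though single genes of that list go in both directions.

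Lrat encodes the acyltransferase that makes retinyl esters, and its brighter probe lies at chr2:174636541-174636600 of rn4 on the minus strand. The log2 ratios of this probe were -2.89, -3.31, -2.12 and -2.69 in C stomach and -1.88, -2.88, -3.93 and -2.49 in OH stomach. C middle intestine had 0.26, -0.18, 0.42 and -0.17, and OH middle intestine had -0.04, 1.57, -0.50 and 0.48. The probe was not well above background on replicate 2 of C stomach and replicate 3 of OH stomach, the lowest array of each group, and was above it on every intestine array. Stomach minus intestine was -2.84 ± 0.45 (SE) in C rats, 7.14-fold lower, with an adjusted p of 0.00014 in limma, and -3.17 ± 0.45 in OH rats, 9.01-fold lower, with an adjusted p of 5.7e-05. With normexp background correction these differences were -1.44 and -1.91 and still passed. The brighter probe passed the filter only through the intestine groups, so its p-values are no separate support for the direction. The second probe of Lrat, at chr2:174644763-174644822, was above background on 3 of 16 arrays and was not tested, and its group means ran from -1.13 to 0.43. OH minus C of the brighter probe was -0.04 (95% interval -0.99 to 0.91) in stomach and 0.29 (-0.66 to 1.25) in intestine.

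Adh1, the classical alcohol dehydrogenase of liver, had 1 spot, for a probe whose design coordinates run over chr2:235810196-235810962 of rn4 on the plus strand. Log2 ratios were -1.50, -1.28, -0.20 and -1.55 in C stomach and -0.77, 0.40, -1.95 and -1.32 in OH stomach. They were -2.28, -3.01, -2.99 and -1.40 in C middle intestine and 0.80, -2.85, -2.47 and -1.71 in OH middle intestine. The SDs of the groups ran from 0.63 to 1.64, and stomach and intestine overlapped in both treatments. Replicate 1 of OH middle intestine, at 0.80, was the highest of all 16 arrays, while the other 3 arrays of its group were below -1.70. Stomach minus intestine was 1.29 ± 0.70 (SE) in C rats (95% interval -0.21 to 2.78, adjusted p = 0.15 in limma) and 0.64 ± 0.70 in OH rats (-0.85 to 2.14, adjusted p = 0.50). The difference of 1.29 in C rats passed in a fit of those 8 arrays alone (adjusted p = 0.036) and without replicate 1 of OH middle intestine (adjusted p = 0.0499), and with scaled ratios it was 1.75 (adjusted p = 0.040).

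Adh7, the alcohol dehydrogenase of the stomach lining that is active on retinol and ethanol, had its probe at chr2:235764840-235764899 of rn4 on the plus strand. The log2 ratios in C stomach were 4.96, 3.55, 5.02 and 4.85, and those in OH stomach were 4.10, 4.22, 3.99 and 3.18. The C intestine arrays had -4.80, -4.69, -4.77 and -3.15, and the OH intestine arrays had -2.17, -5.02, -5.07 and -5.33. Ratios of dim spots can rest on surrogate signals of the software, which was not checked spot by spot. In each intestine group 3 of 4 arrays had a Cy5 signal not well above background. Replicate 4 of C and replicate 1 of OH, the highest of their groups, were above it. Adh7 was higher in stomach than in intestine in both treatments, with a fitted difference of 8.95 ± 0.61 (SE, limma, adjusted p = 3.5e-08) in C and of 8.27 ± 0.61 (adjusted p = 8.5e-08) in OH rats. With normexp background correction, which raises dim signals, the differences were 5.66 and 5.31 and still passed, so the size depends on how dim signals are treated. The probe passed the filter only through the stomach groups, where it was brighter. Its p-values are therefore no separate support for the direction.

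OH minus C of Adh7 was -0.72 (95% interval -2.03 to 0.59, adjusted p = 0.71 in limma) in stomach and -0.04 (-1.35 to 1.27) in intestine. C stomach replicate 2 was the lowest C stomach array for both Adh7 and Aldh1a1, and lay below all OH stomach arrays but 1 for Adh7. Marker genes of the squamous lining of forestomach and esophagus (10 of 12 measured) had mean ratios of 1.1, 0.22, 1.78 and 1.38 on the C stomach arrays, of 0.21, 1.15, 0.26 and 0.43 on the OH stomach arrays, and of -3.00 to -2.80 on the intestine arrays. C stomach replicates 1, 3 and 4 had the highest Adh7 and Aldh1a1 of the 8 stomach arrays and were high in these markers, as was OH replicate 2, where Adh7 and Aldh1a1 were at 4.22 and 1.03. C stomach replicates 1, 3 and 4 also stood above the other 5 in striated muscle genes (11 of 14 measured, 3.17 to 3.80 against -1.19 to 0.98) and in mesothelium genes (7 of 7, 0.87 to 1.82 against 0.11 to 0.53). The part of squamous epithelium, muscle or mesothelium in the levels of Adh7 and Aldh1a1 was not tested.

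**Figure D3:**
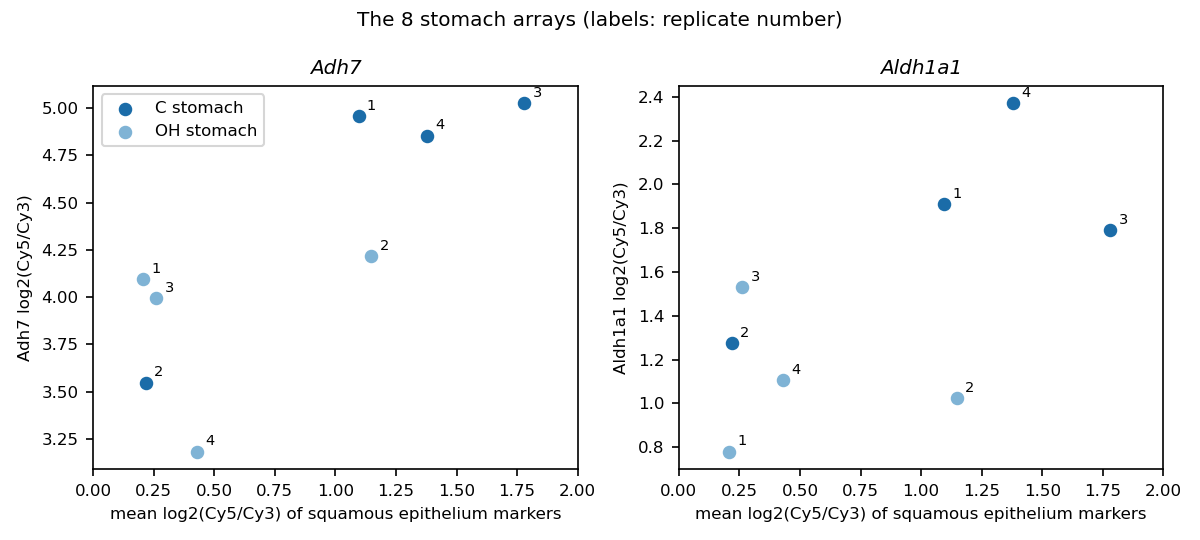
Log2 ratio of Adh7 and of Aldh1a1 (vertical) against the mean log2 ratio of squamous epithelium marker genes (horizontal) on the 8 stomach arrays, each labelled with its replicate number. C stomach replicates 1, 3 and 4 lie at the upper right of both panels, and C stomach replicate 2 lies below the other C stomach arrays in the markers and in both genes.

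Aldh1a1, a retinaldehyde dehydrogenase of the cytosol, had its probe at chr1:223773152-223773211 of rn4 on the plus strand. Its log2 ratios were 1.91, 1.27, 1.79 and 2.37 in C stomach and 0.78, 1.03, 1.53 and 1.11 in OH stomach. In C middle intestine they were -2.11, -1.92, -2.08 and -1.70, and in OH middle intestine -1.38, -2.45, -1.53 and -1.67. Every stomach array was above the reference and every intestine array below it. The difference was 3.79 ± 0.25 (SE) in C rats, 13.8-fold higher in stomach, with an adjusted p of 2.5e-08 in limma, and 2.87 ± 0.25 in OH rats, 7.30-fold, with an adjusted p of 5.1e-07.

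Of the 7 genes, Aldh1a1 came nearest to a difference between OH and C by the limma p-value. Its mean ratio in stomach was 1.11 in OH and 1.84 in C, a difference of -0.73 (95% interval -1.26 to -0.19) with an unadjusted p of 0.012 and an adjusted p of 0.36 in limma. The groups overlapped, since C replicate 2 (1.27) lay below OH replicate 3 (1.53), and the exact permutation p was 0.057. The marker genes of muscle, mesothelium and squamous epithelium given above differed between the same arrays, and their part in this difference was not tested. The Cy5 signal of Aldh1a1 was lower in OH by -0.35 on the log2 scale and the Cy3 signal of the reference was higher by 0.38. Cy3 was also higher in OH stomach for Lrat (0.42), Adh1 (0.41), Adh7 (0.38), Aldh1a2 (0.42) and Rbp2 (0.11). For Rbp4 it was higher by 0.21 with the dim spot left out. With Cy5 alone, OH minus C of Aldh1a1 was -0.55 (limma, adjusted p = 0.37). The part of each channel in the difference was not tested. Leaving out 1 array at a time gave differences from -0.91 to -0.55, with adjusted p from 0.098 to 0.71 in limma. Without C stomach replicate 2 the difference was -0.91 with an adjusted p of 0.098. In intestine OH minus C was 0.19 (-0.34 to 0.73). The response in stomach minus that in intestine was -0.92 ± 0.36 (SE), with an unadjusted p of 0.021 and an adjusted p of 0.84.

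Aldh1a2, the retinaldehyde dehydrogenase of the embryo and of mesenchymal tissues, had its probe at chr8:75771061-75771120 of rn4 on the plus strand. The log2 ratios were -0.99, -1.41, -0.47 and -0.90 in C stomach and -0.50, -0.85, -1.12 and 0.02 in OH stomach. They were -0.85, -1.12, -0.60 and -0.75 in C middle intestine and -0.82, -0.46, -0.77 and -0.41 in OH middle intestine. All 4 groups overlapped, and 15 of the 16 arrays lay below the reference. Stomach minus intestine was -0.11 (95% interval -0.62 to 0.39) in C rats and 0.00 (-0.50 to 0.50) in OH rats. OH minus C was 0.33 (-0.17 to 0.83, adjusted p = 0.65 in limma) in stomach and 0.21 (-0.29 to 0.72, adjusted p = 0.85) in intestine. No difference in Aldh1a2 was detected, and the intervals leave room for one of less than 1 log2 unit either way.

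The effect of obestatin was compared in each tissue, and none of the 7 genes passed in stomach or in intestine, nor in the difference between the tissues. Over all probes 0% passed in stomach, 0.368% in intestine and 0% in the difference between tissues. At an unadjusted p under 0.05, 1 of the 7 genes (Aldh1a1) was called in stomach against 10.6% of all probes, 0 in intestine against 10.5%, and 1 (Aldh1a1) in the difference between tissues against 5.85%. The arrays of OH and C overlapped for all 7 genes in both tissues, where 7.6% of all probes in stomach and 5.86% in intestine had groups that did not overlap. The test that the methods name also called none of the 7 in either tissue. The median difference of the 7 genes was 0.03 in stomach and 0.19 in intestine, beside 0.01 and 0.00 over all probes. The median in stomach was the value of Rbp4, whose OH minus C was 0.18 there with the dim spot left out. The 95% intervals reached furthest for Adh1, from -1.27 to 1.72 in stomach and from -0.63 to 2.36 in intestine. With the dim spot kept they were narrowest for Rbp4, from -0.26 to 0.32 and from -0.20 to 0.37.

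**Figure D4:**
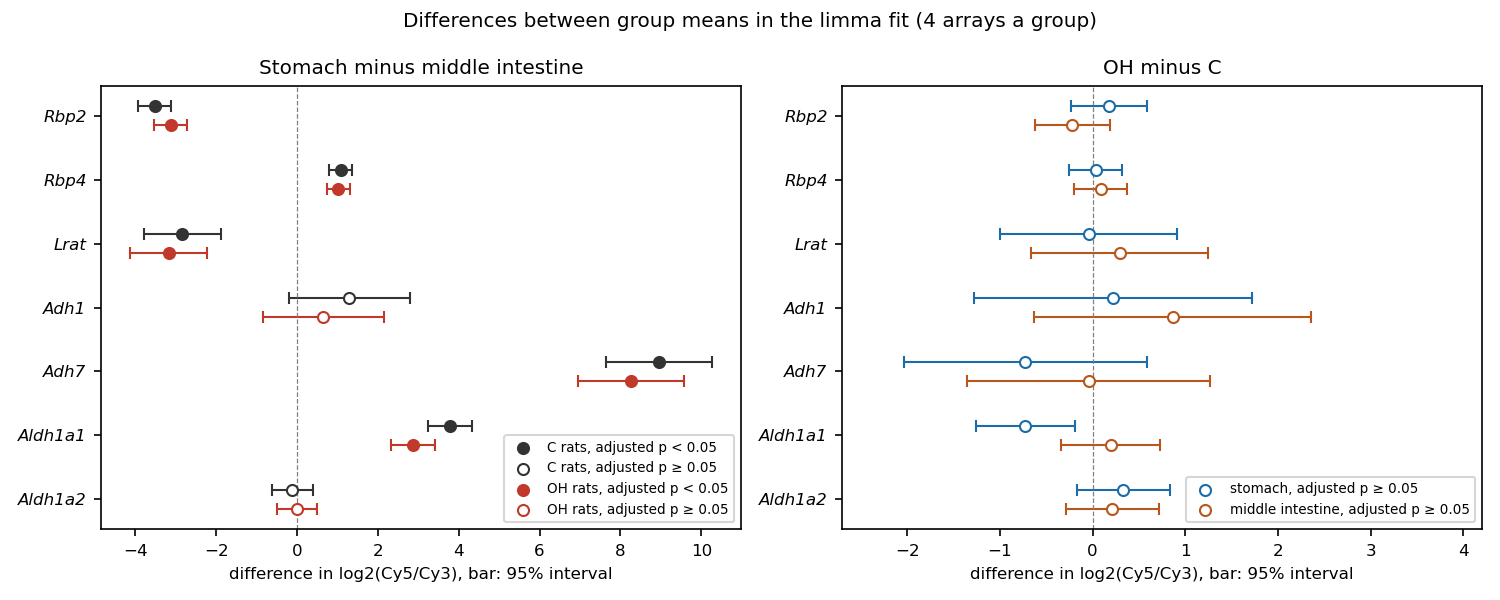
Differences between group means in log2(Cy5/Cy3) with 95% intervals in the limma fit, on the left stomach minus middle intestine in C and OH rats and on the right OH minus C in each tissue. Filled points have an adjusted p under 0.05; 5 of the 7 genes are filled in each treatment on the left and none on the right, and the size for Adh7 rests on intestine groups with 1 of 4 arrays above background.

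In order of the group means, Rbp2 and Lrat had both intestine groups above both stomach groups, and Rbp4, Adh7 and Aldh1a1 had both stomach groups above both intestine groups. Neighbours of the same tissue in these orders, C and OH, overlapped for all 5 genes. For Adh1 the stomach means were -0.91 in OH and -1.13 in C and the intestine means -1.56 in OH and -2.42 in C, and for Aldh1a2 the means lay between -0.94 and -0.61, with overlap between all neighbours.

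For each gene the 2 named genes with the most similar ratios were sought among 15787 probes, by the root mean square of the difference over the 16 arrays after each gene was centred on its mean. They were Slc39a5 (0.24) and Exoc3l4 (0.24) for Rbp2, Ckap4 (0.16) and Arl2bp (0.16) for Rbp4, and Epb41l3 (0.44) and Fam213b (0.46) for Lrat. They were Aox4 (0.79) and Gkn2 (0.90) for Adh7, Cbr3 (0.26) and Pllp (0.30) for Aldh1a1, C1qc (0.17) and Emcn (0.19) for Aldh1a2, and Ctsl1 (0.77) and Txndc16 (0.77) for Adh1. Aox4, which encodes an aldehyde oxidase, had mean ratios of 4.89 in C and 4.29 in OH stomach and of -3.77 in C and -4.12 in OH intestine. The median distance over the probes searched was 1.71 for Rbp2, 0.66 for Rbp4, 1.65 for Lrat and 1.17 for Adh1. It was 4.40 for Adh7, 1.75 for Aldh1a1 and 0.52 for Aldh1a2. Small distances for Rbp4 and Aldh1a2 thus stand beside small medians.

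The other genes of these pathways also differed by tissue in both directions, and none passed for OH against C in either tissue. Among 11 other retinoid binding and transport proteins 9 were measured, of which 3 were higher and 1 lower in stomach in C rats, and 4 higher and 2 lower in OH rats. For all lists these counts stand beside 45% of all probes in C and 38.2% in OH rats. Crabp2, a carrier of retinoic acid, was higher by 4.52 ± 0.35 (SE, adjusted p = 1.4e-07 in limma). Ttr had the largest difference of this list between OH and C, 1.00 in stomach, with an adjusted p of 0.27.

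Of 17 retinol and retinal oxidoreductases outside the Adh family 12 were measured, and 3 were higher and 3 lower in stomach in each treatment, beside the same 45% and 38.2%. Akr1b8, an aldo-keto reductase, was higher by 5.54 (adjusted p = 1.8e-09 in limma), and Dhrs9, a retinol dehydrogenase, differed by -1.59 (adjusted p = 0.041). Dhrs9 was dim, being not well above background on any OH stomach array, with a scaled mean log2 Cy5 signal of 5.24 in OH middle intestine. Akr1b8 was also the gene of this list with the largest difference between OH and C, -1.15 in stomach, with an adjusted p of 0.25. Of 10 genes of carotenoid cleavage and retinyl ester turnover 6 were measured, and 2 were higher and 2 lower in C stomach and 1 higher and 2 lower in OH stomach. Lpl, lipoprotein lipase, was higher by 4.41 (adjusted p = 1.2e-09) and Dgat1, an acyltransferase that can also esterify retinol, differed by -2.02 (adjusted p = 4.5e-05).

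Of 10 genes of retinoic acid synthesis or clearance and its nuclear receptors 7 were measured, with 1 higher and 1 lower in stomach in each treatment. Rarg, a retinoic acid receptor, was higher by 1.61 (adjusted p = 9.1e-06 in limma). Aldh1a3, the retinaldehyde dehydrogenase beside Aldh1a1 and Aldh1a2, was not well above background on any stomach array and was at least 5.05-fold higher in C middle intestine (adjusted p = 6.8e-05). Of the 3 retinaldehyde dehydrogenases, Aldh1a1 was thus higher in stomach, Aldh1a2 had no detected tissue difference and Aldh1a3 was higher in intestine. Aldh1a1 was still well above background on every intestine array. Aldh1a3 was dim there, with scaled mean log2 Cy5 signals of 4.92 in C and 5.17 in OH middle intestine. Bounds of this kind (at least 5.05-fold) set the mean Cy5 level of the brighter group against the lowest signal counted as above background. This was done after scaling of the mean signals of the arrays to common quantiles. They are open to dye bias because dyes were not swapped. The adjusted p beside a bound, here and below, tests the fitted ratios and not the bound. In the dimmer tissue these ratios rest on signals not well above background. Such a gene passed the filter only through the tissue where it was brighter, so its p is no separate support for the direction.

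Of 6 other alcohol dehydrogenases 5 were measured, and 1 was higher in stomach in each treatment. This was Adhfe1, an alcohol dehydrogenase that contains iron and lies outside the Adh cluster, which was not well above background on any intestine array and was at least 14.4-fold higher in C stomach (adjusted p = 1.4e-08 in limma). Adh6a, another gene of the Adh family, had the largest difference between OH and C of this list, -0.56 in intestine, with an adjusted p of 0.95. Of 16 other aldehyde dehydrogenases 15 were measured, of which 5 were higher and 4 lower in stomach in C rats and 6 higher and 5 lower in OH rats, beside 45% and 38.2% of all probes. Aldh1a7, a close paralogue of Aldh1a1, was not well above background on any intestine array and was at least 33.7-fold higher in C stomach and at least 18.2-fold higher in OH stomach (adjusted p = 2.9e-08 and 3.6e-07). Aldh1b1, a mitochondrial aldehyde dehydrogenase, differed by -6.82 (adjusted p = 3.5e-11) and was thus lower in stomach. The largest difference between OH and C in this list was that of Aldh1a7, -1.49 in stomach, with an adjusted p of 0.29. The median tissue difference in C rats was 0.15, 0.05, -0.22, -0.22, 0.47 and 0.27 over the lists in the order given, beside -0.01 over all probes.

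**Figure D5:**
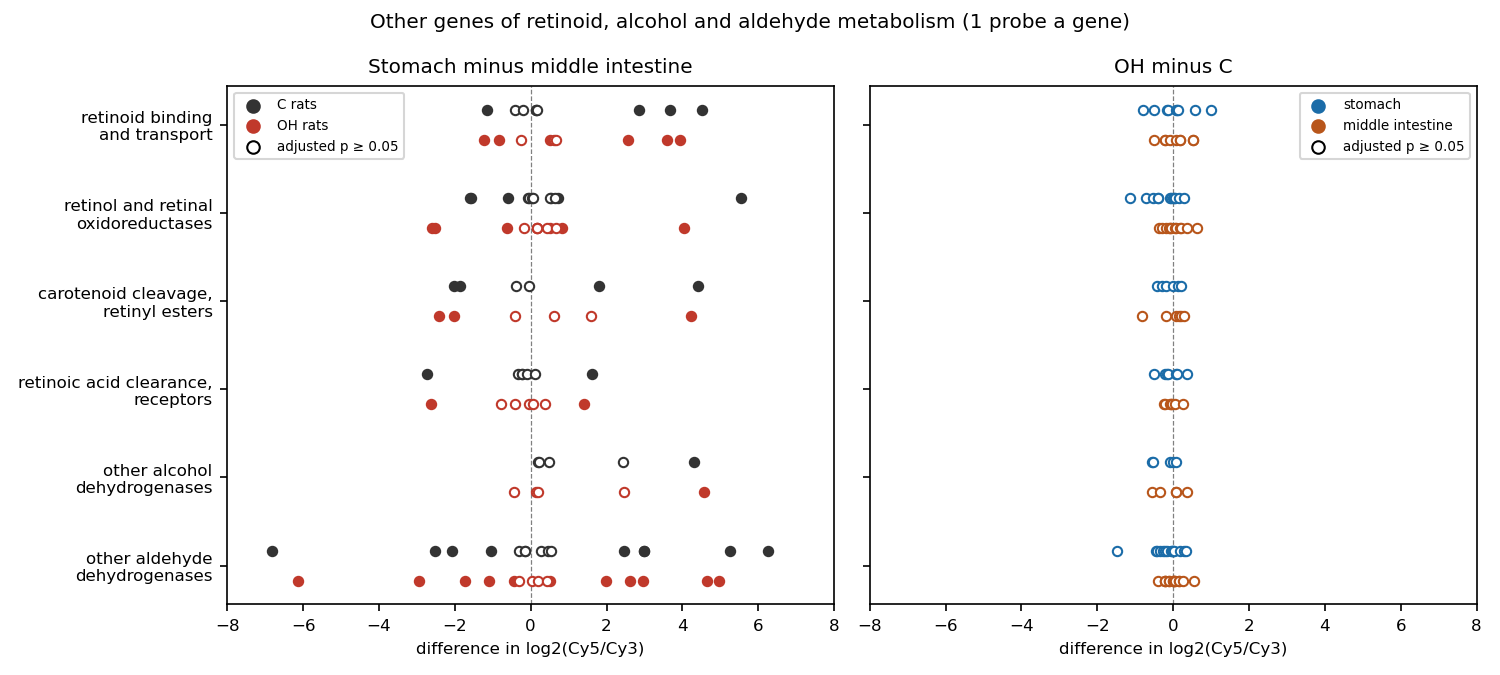
Differences in log2(Cy5/Cy3) of the other genes of retinoid, alcohol and aldehyde metabolism, 1 point a gene and comparison, by list, on the left stomach minus middle intestine and on the right OH minus C on the same scale. Filled points have an adjusted p under 0.05 in limma; points of genes not above background in a tissue show the fitted value, and no point is filled on the right, where the largest are -1.49 and 1.00.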

How the data were processed

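For each array the authors deposited Agilent Feature Extraction output, version 10.10.1.1 per the file headers and 10.7.3.1 per the labels. The deposited intensity of each spot and channel was background-subtracted and Lowess-normalized within the array by that software, with surrogate values and marks for dim spots and marks for outlier spots. A deposited table of log10 ratios held the same values, within 0.005 on 1 array. The deposited values are not on a log2 scale. From the intensities, log2 ratios of Cy5 to Cy3 were computed, spots marked as outliers in either channel were left out, and spots of a probe were averaged. Probes were kept (21170 of 30367) where on every one of the 4 arrays of at least 1 group 50% or more of their spots exceeded background in Cy5, and each group had 3 values or more. Ratios were fitted with 1 mean per group over 16 arrays in limma 3.58.1 (R 4.3.3), with Benjamini-Hochberg adjustment over these probes and a threshold of 0.05; exact permutation tests of 4 against 4 stood beside it. A gene was called by its brightest probe. The linear model was tested on simulated ratios.

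Groups came from the labels, with 4 rats a group. In the fit reported, the limma p-values rest on the spread between rats within groups, pooled over all 4 groups. A p-value for stomach thus also rests on the spread in intestine. For Rbp2 the SE of OH minus C was 0.19 in stomach and 0.19 in intestine. Its group SDs ran from 0.07 in OH stomach to 0.40 in C middle intestine. The exact permutation tests used only the arrays compared. The study's methods give separate litters for each treatment, so a difference between OH and C cannot be told apart from one between litters. Whether rats of a group were littermates is not given. The number of arrays limits the precision. Genes, lists and tests were chosen with earlier results of these data known. Named pathway genes had the largest difference of their list between C tissues, in each direction, or between OH and C. One gene that this rule names is not reported here. Alternatives covered background correction, scaling, centring, Cy5 alone, the authors' table, no filter on dim probes, keeping outlier spots, the arrays fitted, a replicate block, ANOVA with Tukey's HSD, the mean of a gene's probes, each array left out, and, added after seeing the data, spots dim in Cy3 left out. Symbols and probe positions are those of the array design (rn4), and promoters are from RefSeq (GRCr8).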

Additional observations from a re-analysis of the deposited data

Results flagged for a closer look

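Of 32 sets of 4 arrays, 1 for each probe and group, 4 had 1 array far from the other 3, where chance gives about 1.6. The gap to the nearest array, as a share of the whole range, was past the 95% critical value of Dixon's test in each, which chance passes in about 1 in 20 groups. For Adh7 it was 0.885 in C stomach, where replicate 2 was at 3.55 and the others between 4.85 and 5.02. It was 0.935 in C middle intestine, where replicate 4 was at -3.15 and the others between -4.80 and -4.69, and 0.904 in OH middle intestine, where replicate 1 was at -2.17 and the others between -5.33 and -5.02. In both intestine groups the array that stood apart was also the only array of the group on which the Adh7 probe was well above background. For Rbp4 it was 0.936 in C middle intestine, where replicate 1 was at -4.72 and the others between -4.91 and -4.90, a range of about 0.2 log2 units in all.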

How the results depend on the processing

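The number of the 7 genes that passed was 4 to 6 between C tissues, 4 to 5 between OH tissues and 0 for OH against C and the difference between tissues, under all alternatives, and leaving out 1 array gave 5 to 6, 5 and 0. Rbp2, Lrat, Adh7 and Aldh1a1 kept their call between tissues in both treatments under each alternative. Differences that changed sign were all without a call. With scaled ratios, Aldh1a2 between C tissues had 0.13, and OH minus C had 0.46 for Lrat in stomach, 0.72 for Adh7 in intestine and 0.20 for Lrat in the difference between tissues. With normexp correction Aldh1a2 between OH tissues had -0.013 and Rbp4 in stomach, OH minus C, -0.16, and with centred ratios Aldh1a2 between OH tissues had -0.034. With Cy5 alone Lrat had 0.19 in stomach, Adh7 0.43 in intestine (the same values without the dim spots) and Rbp4 0.71 in the difference between tissues (-0.034 without the dim spots). With the ratios, leaving out the dim spots gave 0.10 for Rbp4 in that difference. Leaving out 1 array gave -0.27 to 0.042 and -0.21 to 0.17 for Aldh1a2 between C and OH tissues. For OH minus C it gave -0.054 to 0.15 for Rbp4, -0.35 to 0.34 for Lrat and -0.22 to 0.57 for Adh1 in stomach, and -0.10 to 0.59 for Lrat and -0.79 to 0.36 for Adh7 in intestine. In the difference between tissues it gave -0.14 to 0.068 for Rbp4, -0.64 to 0.062 for Lrat, -0.094 to 0.29 for Aldh1a2, -1.08 to 0.14 for Adh1 and -1.08 to 0.062 for Adh7. The cause was not tested. Over all probes, 0 passed for OH against C in stomach in the fit reported, 5 with Cy5 alone, 3 centred, 2 in the authors' table, 639 without the filter, 709 by ANOVA and Tukey's HSD and 311 without C stomach replicate 2. In intestine 78 passed, with 269 scaled, 268 with Cy5 alone, 1378 without the filter, 936 by ANOVA and Tukey's HSD and 1 with only the arrays compared. Leaving out 1 array gave 13 (without C middle intestine replicate 3) to 88. In the difference between tissues 0 passed, 6 with scaled ratios and 68 without C stomach replicate 2.

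Whether a replicate number marks the same rat in stomach and intestine is not given in the sources used here. Deviations from the group means of same-numbered arrays of the 2 tissues correlated between 0.058 and 0.25 in C rats and between -0.12 and 0.32 in OH rats. Same-numbered C and OH arrays, which cannot be the same rat, correlated between -0.36 and 0.30 in stomach and between -0.40 and 0.51 in intestine. The correlations therefore cannot decide whether the numbers mark pairs, and the numbers were not taken as pairs. With the replicate number as a block, 5, 5, 0, 0 and 0 of the 7 genes passed in the comparisons between C tissues, between OH tissues, for OH against C in stomach and in intestine, and in the difference between tissues, and 40 of all probes passed in intestine. The block changed no call of the 7 genes.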

Other observations

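The intestine arrays that stood apart for Adh7 were also the highest of their groups for Adh1 and Aldh1a1, which were replicate 4 of C middle intestine and replicate 1 of OH middle intestine. These arrays were picked for Adh7, so 2 of the other 6 genes were highest on both, beside 3.44% of all probes. On these arrays Adh1 was at -1.40 and 0.80 and Aldh1a1 at -1.70 and -1.38. The mean ratio of the stomach mucosa genes there was -3.47 and -3.15, with -3.71 to -3.49 and -3.39 to -3.12 on the other arrays of each group, and that of the adipocyte genes was -1.30 and -0.26, with -1.69 to -1.05 and -1.50 to -0.88 on the others. This pattern was noticed in the same data and was not tested.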
